A study of Mus musculus with 22 samples.

Results

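Open chromatin of the hippocampus was compared with that of the frontal cortex of the same mice 12 h after an inflammatory challenge. The comparison used 6 OMNI-ATAC-seq libraries from 3 animals, of 22 libraries from 11 animals in the study. Libraries were chosen by their labels, and the tissues were paired by animal (replicates 1, 3 and 4). OMNI-ATAC-seq marks accessible DNA with a transposase that inserts sequencing adapters, here in 20 to 30 mg of frozen tissue per library.

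The animals were adult male wild type C57BL/6J mice. All of them, those given saline included, had corticosterone (CORT), the main rodent stress glucocorticoid, in their drinking water for 7 days. On day 8 they received diisopropyl fluorophosphate (DFP), an organophosphate that blocks acetylcholinesterase, and CORT was then given intermittently over 5 weeks, which models Gulf War Illness. The 3 mice described here then received lipopolysaccharide (LPS), a component of the outer membrane of bacteria, and both tissues were taken 12 h later. The other 8 animals served for comparison: 2 had saline and were taken at 6 h, 3 had LPS and were taken at 6 h, and 3 had LPS and were taken at 24 h. Animals without CORT and DFP were not analysed here, so a tissue difference below is one between exposed tissues. Both tissues are bulk samples, in which more cells of a type and more open sites per cell cannot be told apart.

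The hippocampus holds the granule neurons of the dentate gyrus and the pyramidal neurons of the CA fields, whereas the frontal cortex is built of layers of projection neurons with different targets. Each neuron type keeps its identity through transcription factors that hold a particular set of distal enhancers open, and most promoters of widely used genes are open in all types. Prox1 and Zbtb20 are known regulators of hippocampal neurons, and Cux1, Cux2 and Rorb of cortical projection neurons, so their regions serve as a check of the tissue labels.

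The authors deposited 1 peak list per library, and read depth is unknown from such lists. The hippocampus libraries held 248850, 284735 and 264985 distinct peak intervals (replicates 1, 3 and 4), and the frontal cortex libraries of the same animals held 217175, 238232 and 238395. The hippocampal mean was 266190 ± 17972.8 and the cortical mean 231267 ± 12204.6 (SD, n = 3 each), so that hippocampus was higher in 3 of 3 animals by 34922.7 on average (exact sign-flip test over animals, p = 0.25 two-sided, the lowest that 3 animals allow). In the other 8 animals the difference was 14562.8 ± 30486.1 (SD), and the difference at 12 h was not distinguishable from it (exact permutation over 165 splits, two-sided p = 0.285, adjusted p = 0.356 over 5 library measures). The share of intervals within 1 kb of a transcription start site was 7.26% ± 0.347 for hippocampus and 8.12% ± 0.217 for cortex (SD, n = 3 each), lower in hippocampus in 3 of 3 animals.

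To set libraries side by side, 563369 windows reaching 250 bp to either side were placed around the peak summits of all libraries. A window counted as open in a library where a peak covered at least 50% of the shorter of peak and window. Libraries of different animals shared 69.0% to 71.4% of their windows within hippocampus and 70.7% to 73.5% within frontal cortex. The tissues of the same animal shared 49.7% to 52.4%, and those of different animals 48.8% to 51.5%. The ranges within and between tissues did not overlap, whereas tissues of 1 animal shared about as much as tissues of different animals. Sharing between the tissues of an animal was 50.9% ± 1.42 at 12 h and 50.7% ± 2.33 in the other 8 animals (SD, exact permutation test, two-sided p = 0.958).

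Of 324059 windows open in 2 or more of the 6 libraries, 42360 (13.1%) were restricted to hippocampus, open in 3 of its libraries and in none from cortex, and 21431 (6.61%) were restricted to cortex in the same sense. A further 133210 were open in all 6. With 3 libraries against 3, no single window can reach an exact permutation p under 0.1 when the pairing is ignored. With tissues paired by animal, the lowest exact sign-flip p is 0.25. These are therefore counts and carry no p. The surplus of hippocampal windows moved with the number of intervals. It was 66.4% of the windows restricted to 1 tissue with all peaks, 55.2% when every library was reduced to its 217175 strongest peaks (33089 and 26805 windows), and 49.2% with the 50000 strongest (9252 and 9571). Of these 9252 and 9571, only 1999 and 914 were also restricted with all peaks, since a peak outside the 50000 strongest counted as absent. No peak of the 3 libraries of the other tissue at 12 h lay within 1 kb of 30992 of the hippocampal and 13333 of the cortical windows.

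Windows open in 1 tissue lay away from start sites. Within 1 kb of one lay 1.80% of the hippocampal and 2.45% of the cortical windows, against 14.0% of those open in all 6 libraries and 8.20% of all compared. Their peaks were weaker and narrower: the median rank of strength within a library was at percentile 48.2 for hippocampal and 43.7 for cortical windows, against 72.3 for windows open in all 6 libraries. Median peak widths were 298, 291 and 442 bp.

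The same windows were then read in the 16 libraries of the other 8 animals, which had no part in choosing them. Windows restricted to hippocampus at 12 h were open in 86.2% ± 4.15 of cases in those hippocampus libraries and in 12.5% ± 6.44 in the cortex libraries (SD, n = 8 each). The difference of 73.7 percentage points had the same direction in 8 of 8 animals (exact sign-flip test, two-sided p = 0.00781, the lowest that 8 animals allow). Windows restricted to frontal cortex were open in 8.63% and 87.1%, a difference of -78.5 percentage points with the same direction in 8 of 8 animals (exact sign-flip two-sided p = 0.00781). A complete split of all 8 against 8 libraries was seen at 13816 hippocampal windows (32.6%) and 7663 cortical windows (35.8%).

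The sets were also read by challenge group. Hippocampal windows were open in 82.7% to 86.2% of cases in the saline hippocampus libraries, in 79.1% to 88.3% at 6 h and in 87.0% to 93.4% at 24 h after LPS. In cortex libraries the same windows were open in 4.77% to 15.3% of cases under saline, 3.38% to 13.6% at 6 h and 15.3% to 20.3% at 24 h. Every hippocampus library lay above every cortex library for this set, and the reverse held for the cortical set.

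**Figure D1:**
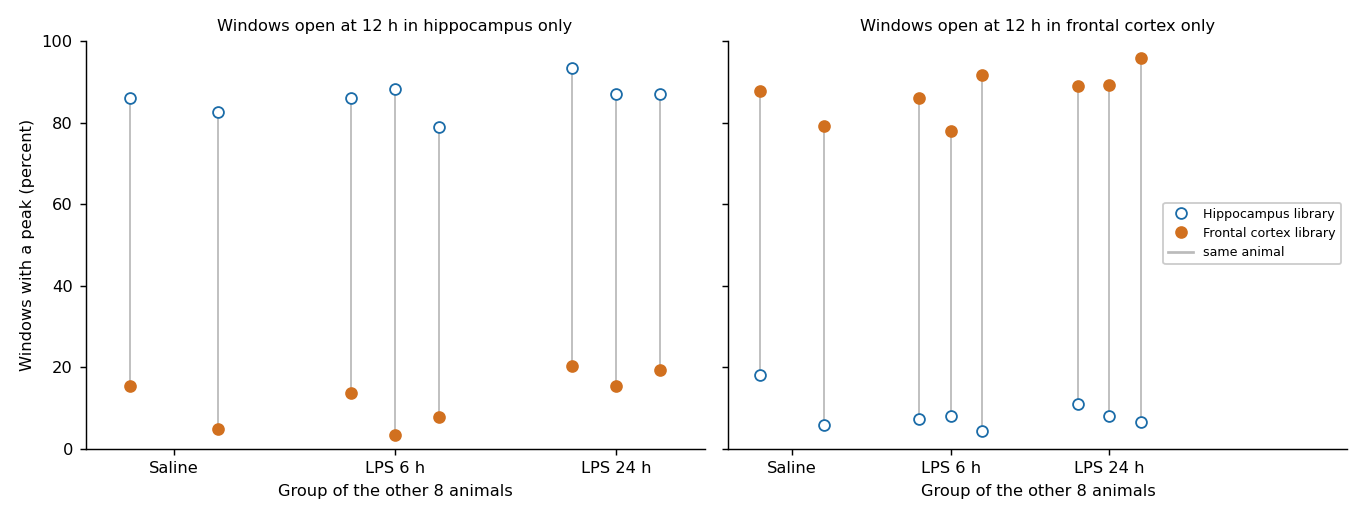
Percent of the windows restricted to 1 tissue at 12 h (left, 42360 hippocampal; right, 21431 cortical) that were open in each library of the other 8 animals, by challenge group. Open circles are hippocampus libraries, filled circles frontal cortex libraries, and grey lines join the tissues of 1 animal; hippocampus libraries lie between 79.1% and 93.4% on the left, far above the cortex libraries.

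Among windows with no peak of the other tissue within 1 kb at 12 h, the 6 per tissue with the highest strength rank were looked at, a set chosen after the values were seen. All but 1 of them with a measured distance lay over 1 kb from a start site, and the exception, inside Fmo6 on the cortical side, lay 947 bp from one. Not all were as clear in the other animals. The hippocampal windows nearest to Cngb3 and Wdr75 were open in 8 of 8 hippocampus but also in 4 of 8 cortex libraries, and the strongest cortical window of this set, inside Cd84, in 2 of 8 hippocampus and 8 of 8 cortex libraries. A hippocampal window lay inside Zfhx3, a homeobox factor gene of neurons (chr8:108628675-108629175), and ranked at percentiles 98.8, 98.3 and 99.3 in the hippocampus libraries. It was open in 8 of 8 hippocampus and 1 of 8 cortex libraries of the other animals. A hippocampal window inside Lingo2, which encodes a neuronal membrane protein (chr4:36435102-36435602), was open in 8 of 8 and 2 of 8. On the cortical side, a window inside Fndc3b (chr3:27503223-27503723) ranked at percentiles 96.7, 97.5 and 97.6 and was open in 0 of 8 hippocampus and 8 of 8 cortex libraries. A window whose nearest protein-coding gene was Itgb8, an integrin gene 53537 bp away (chr12:119291563-119292063), was likewise open in 0 of 8 and 8 of 8. These ranked lowest of the 6 cortical windows.

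By strength alone, without the 1 kb condition, the 12 windows at the top were mostly another kind. For 11 of them, near Plag1, Tpp2, Cops4, Supt20 and Dap for hippocampus and Oser1, Flvcr1, Lin54, Phlpp1, Rpe and Kbtbd8 for frontal cortex, all 3 libraries of the other tissue had a peak within 1 kb, and the peaks over them were 990 to 1590 bp wide. The window near Tpp2 was open in 1 of 8 hippocampus and 3 of 8 cortex libraries of the other animals, against its direction at 12 h, and that near Rpe in 7 of 8 and 4 of 8, likewise against it. The remaining window, 33248 bp from Cngb3, had no cortical peak within 1 kb.

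Promoters restricted to 1 tissue were few. Of 13061 promoters of protein-coding genes (250 bp before to 50 bp after a start site, RefSeq, GRCm38.p6) open in 2 or more of the 6 libraries, 100 (0.766%) were open in hippocampus only and 64 (0.49%) in frontal cortex only, and 11642 were open in all 6. They held fewer CpG dinucleotides, with a median of 4.5 for hippocampus and 5.5 for frontal cortex against 22 for those open in all 6. In the other 8 animals the hippocampal promoters were open in 82.6% of cases in hippocampus and 19.9% in cortex libraries, and the cortical promoters in 21.5% and 82.6% (exact sign-flip test, two-sided p = 0.00781 for each, with the same direction in 8 of 8 animals). At 12 h no peak of the other tissue lay within 1 kb of 31 of the hippocampal and 23 of the cortical promoters.

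The sequences of 7 promoters restricted to 1 tissue are shown as those whose peaks are described next. They are given 5′ to 3′ on the strand of the gene, from RefSeq GRCm38.p6. Capitals mark matches, on either strand, to AP-1 (TGANTCA), the cAMP response element (TGACGTCA), a NeuroD-type E-box (CAGATG), a GC box (GGGCGG) or an ETS core (CCGGAA), and no capitals means that none of these letters was found. Tdo2 and Sval1 were named by strength, and the other 5 were chosen after their values were seen, as genes of the marker lists or as cortical promoters with no hippocampal peak nearby.
Tdo2 promoter: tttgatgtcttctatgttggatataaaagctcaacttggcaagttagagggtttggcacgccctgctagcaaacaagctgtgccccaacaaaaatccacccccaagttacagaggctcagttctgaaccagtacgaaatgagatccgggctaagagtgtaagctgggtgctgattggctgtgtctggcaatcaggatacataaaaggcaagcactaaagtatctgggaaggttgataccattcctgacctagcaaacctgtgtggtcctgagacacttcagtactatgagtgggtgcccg
Sval1 promoter: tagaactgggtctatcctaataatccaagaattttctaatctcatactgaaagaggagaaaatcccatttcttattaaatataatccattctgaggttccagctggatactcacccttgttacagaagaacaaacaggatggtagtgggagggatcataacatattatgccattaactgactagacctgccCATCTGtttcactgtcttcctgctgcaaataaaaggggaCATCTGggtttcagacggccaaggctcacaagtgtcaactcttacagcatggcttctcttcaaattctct
Dsp promoter: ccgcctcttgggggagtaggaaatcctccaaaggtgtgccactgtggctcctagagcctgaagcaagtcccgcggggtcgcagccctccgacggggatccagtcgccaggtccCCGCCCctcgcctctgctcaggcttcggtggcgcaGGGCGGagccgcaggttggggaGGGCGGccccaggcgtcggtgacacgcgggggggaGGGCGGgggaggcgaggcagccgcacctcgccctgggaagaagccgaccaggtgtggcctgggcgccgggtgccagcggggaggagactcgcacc
Lhx9 promoter: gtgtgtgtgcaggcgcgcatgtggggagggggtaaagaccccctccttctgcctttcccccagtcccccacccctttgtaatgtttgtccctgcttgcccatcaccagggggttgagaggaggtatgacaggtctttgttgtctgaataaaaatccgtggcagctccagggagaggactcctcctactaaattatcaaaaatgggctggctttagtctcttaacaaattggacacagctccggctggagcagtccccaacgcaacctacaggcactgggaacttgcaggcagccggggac
Cd209a promoter: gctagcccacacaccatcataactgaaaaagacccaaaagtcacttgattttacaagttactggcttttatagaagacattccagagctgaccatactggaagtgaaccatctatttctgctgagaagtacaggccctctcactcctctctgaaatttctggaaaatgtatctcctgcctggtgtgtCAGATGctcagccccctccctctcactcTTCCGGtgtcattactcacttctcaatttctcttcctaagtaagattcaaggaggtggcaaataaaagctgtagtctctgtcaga
Gm14461 promoter: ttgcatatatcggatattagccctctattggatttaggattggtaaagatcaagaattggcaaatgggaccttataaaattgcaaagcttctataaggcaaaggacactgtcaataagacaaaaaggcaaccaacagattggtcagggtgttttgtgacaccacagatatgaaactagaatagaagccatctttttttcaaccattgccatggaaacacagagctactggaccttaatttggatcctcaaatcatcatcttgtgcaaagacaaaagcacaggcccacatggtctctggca
Ntsr2 promoter: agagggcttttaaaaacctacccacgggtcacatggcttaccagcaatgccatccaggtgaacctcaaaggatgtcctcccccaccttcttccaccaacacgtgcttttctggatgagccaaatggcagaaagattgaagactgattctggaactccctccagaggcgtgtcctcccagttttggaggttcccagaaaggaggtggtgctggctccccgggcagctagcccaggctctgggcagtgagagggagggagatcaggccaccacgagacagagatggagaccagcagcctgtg

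The Tdo2 promoter (chr3:81975679-81975978, minus strand) was open in 3 of 3 hippocampus and 0 of 3 cortex libraries, and in 8 of 8 and 0 of 8 of the other animals. Peaks within 1 kb of it were found in 1 of 3 and 2 of 8 cortex libraries. Tdo2 encodes tryptophan 2,3-dioxygenase, an enzyme of the kynurenine pathway. Its peak ranked at percentiles 85.1, 94.3 and 91.8, and the promoter held 4 CpG. The Sval1 promoter (chr6:41951378-41951677, plus strand), with 1 CpG and a pair of E-box matches, was open in the same libraries, and no cortex library of any animal had a peak within 1 kb of it.

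Dsp encodes desmoplakin, a marker of dentate granule neurons. Its promoter (chr13:38151044-38151343, plus strand) was open in 3 of 3 hippocampus and 0 of 3 cortex libraries and in 8 of 8 and 2 of 8 of the other animals. Unlike the others it was rich in CpG, with 27, and held 4 GC box matches, and all 3 cortex libraries had a peak within 1 kb. Lhx9, a factor gene of the thalamus, had a promoter (chr1:138842395-138842694, minus strand) open in 3 of 3 and 0 of 3, and in 8 of 8 and 0 of 8. Peaks within 1 kb were found in 1 of 3 and 6 of 8 cortex libraries.

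On the cortical side, the Cd209a promoter (chr8:3748935-3749234, minus strand), of a lectin gene of myeloid cells, was open in 0 of 3 hippocampus and 3 of 3 cortex libraries and in 0 of 8 and 8 of 8 of the other animals. The promoter of Gm14461, a predicted gene (chr2:78237297-78237596, plus strand), gave the same counts, and neither had a hippocampal peak within 1 kb in any animal. The 3 cortical promoters named by strength alone, Sun3, Gm39270 and Thoc7, were less clear. Each was chosen by a restricted window over it, but the promoters of Sun3 and Thoc7 were themselves open in 1 of 3 hippocampus libraries at 12 h. The 3 promoters were open in 4, 2 and 4 of 8 hippocampus and in 8, 1 and 6 of 8 cortex libraries of the other animals. Gm39270 thus went against its direction at 12 h, and every hippocampus library had a peak within 1 kb of each. The promoter of Ntsr2, an astrocyte gene for a neurotensin receptor (chr12:16653220-16653519, plus strand), was open in 0 of 3 and 3 of 3. Among the other animals it was open in 5 of 8 hippocampus and 8 of 8 cortex libraries, and every hippocampus library had a peak within 1 kb. Gfap, another gene of the astrocyte list, went the other way. Its promoter was open in 3 of 3 hippocampus and 0 of 3 cortex libraries, and in 6 of 8 and 0 of 8 of the other animals. Its peaks were weak (percentiles 23.1, 4.85 and 8.13), and 1 of 3 and 7 of 8 cortex libraries had a peak within 1 kb.

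The share of promoters with an E-box match was 27.0% of the hippocampal, 17.2% of the cortical, 10.8% of those open in all 6 and 14.6% of all 21263 promoters. For the GC box the shares were 22%, 28.1%, 68.8% and 46.2%. The E-box share among 7718 promoters open in no library was 19.7%, and their median was 3 CpG.

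Genes were compared by the number of distinct intervals in the gene body and 5 kb on either side, scaled to each library's total number of intervals, since the libraries differ in it. A log2 difference below is that of scaled numbers plus 0.5, hippocampus minus frontal cortex, from limma with the animal as a block and Benjamini-Hochberg adjustment over all 5407 genes with a mean of 8 or more intervals. In total 615 genes (11.4%) had more intervals in hippocampus and 1058 (19.6%) had more in frontal cortex at an adjusted p under 0.05. Without the replicate block the counts were 548 and 917. The median log2 difference of all genes tested was -0.09. When libraries were scaled by the median of ratios over genes, the median moved by 0.11 to 0.02 and the split became 915 genes (16.9%) towards hippocampus and 8.91% of genes towards cortex. Which tissue had more called genes thus depended on the scaling, whereas all 615 hippocampal and 45.6% of the 1058 cortical genes kept their call. Without the animal of replicate 3 the counts were 389 and 618. Of the called genes, 133 of 615 and 143 of 1058 had a mean under 8 in the tissue with fewer intervals.

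The adjusted p-values depended on which genes entered the test. With a minimum mean of 2 intervals in place of 8, 295 of the 615 (5.46% of the 5407 genes) and 438 of the 1058 (8.1%) kept their call, and the lowest adjusted p among the genes of the lists was 0.0027. A very small adjusted p below therefore holds for the minimum of 8, and calls of list genes that were lost with the minimum of 2 are named. A gene that was not called is not shown to be equal between tissues.

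The largest hippocampal difference was that of Slc9a2, a sodium/proton exchanger gene (chromosome 1, 40681712 to 40768885, GRCm38). It held 13, 17 and 12 intervals in the hippocampus libraries (replicates 1, 3 and 4) and 2, 2 and 3 in the cortex libraries, a 4.53-fold difference (log2 2.18 ± 0.19 SE, limma). It reached the minimum mean of 8 only through hippocampus, so no adjusted p is given for it. Ndst4, which encodes a heparan sulfate sulfotransferase (chromosome 3, 125404029 to 125728351), held 22, 29 and 28 against 4, 5 and 7 (4.09-fold), and likewise passed through hippocampus alone. Every hippocampus library lay far above every cortex library for both genes. Slc44a5, a choline transporter-like gene, held 67, 78 and 74 against 23, 25 and 24. The others among the 10 largest were Mageb18 (log2 1.80), Lypd1 (1.67, with 29.2% of its region shared with Gpr39), Wdr72 (1.65), Stac (1.49), Zfp521 (1.44), Agmo (1.33) and Abcb11 (1.32). Of these 10 genes 8 passed the minimum only through hippocampus, and of the 10 largest towards cortex 6 only through cortex. For all 10 hippocampal genes the scaled numbers did not overlap between tissues, a condition of the choice.

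The largest cortical difference was that of Rorb, a nuclear receptor gene of layer 4 neurons (chromosome 19, 18930609 to 19111196). It held 9, 12 and 10 intervals in the hippocampus libraries and 23, 31 and 26 in the cortex libraries, 2.87-fold more in cortex (log2 -1.52 ± 0.12 SE, adjusted p = 8.56e-14, limma, and 0.0027 with the minimum of 2). No cortex library overlapped a hippocampus library for this gene. Arl13b, a cilium gene, held 5, 6 and 8 against 12, 15 and 13, with 28.3% of its region shared with Stx19. Others among the largest were Fkbp9 (log2 -1.07), Nova1 (-1.05), Stard8 (-1.01), Pcdh10 (-1.01), Hr (-0.98), Fbxl4 (-0.96) and Sytl2 (-0.96).

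**Figure D2:**
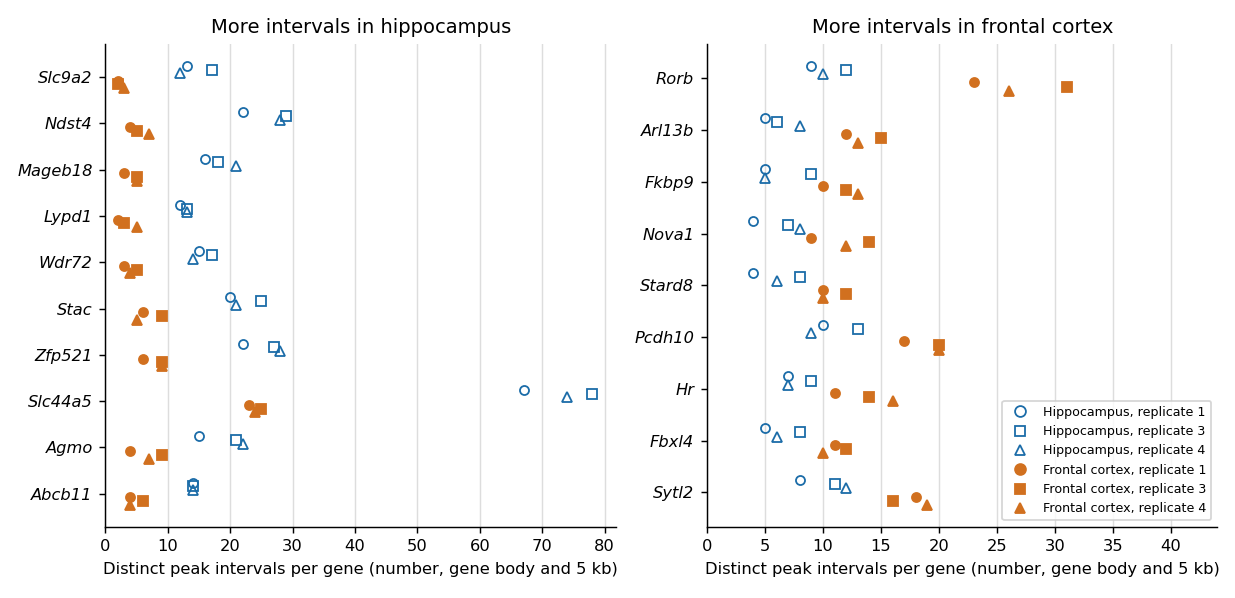
Number of distinct peak intervals in the gene body and 5 kb on either side, per library at 12 h, for genes with the largest differences, 10 towards hippocampus and those reported towards frontal cortex; open blue symbols are hippocampus libraries, filled orange symbols cortex libraries, and the symbol shape gives the animal. Slc9a2 holds 12 to 17 intervals in hippocampus and 2 or 3 in cortex, and Rorb holds 9 to 12 and 23 to 31.

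In the other 8 animals the same genes were tested by limma on 1 difference per animal. By this test 17.2% of all genes were called towards hippocampus and 27.3% towards cortex. Of the 615 hippocampal genes, 606 had the same sign in the other 8 animals and 519 were called there in the same direction. Of the 1058 cortical genes these counts were 1030 and 807, and 1 gene was called in the opposite direction. The median log2 difference in the other animals was 0.37 for the hippocampal and -0.28 for the cortical genes, against 0.48 and -0.42 at 12 h, where the genes were chosen. Slc9a2 had a mean difference of 1.79 in the saline, 2.11 in the 6 h and 2.22 in the 24 h animals. Rorb had -0.98, -1.25 and -1.39. Prox1 had 1.09, 0.93 and 0.64, against 1.04 at 12 h.

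The difference between tissues at 12 h was tested against that of the other 8 animals. No gene passed (0 of 5407, 0%, limma on 1 difference per animal), 349 genes had an unadjusted p under 0.05, and the lowest adjusted p was 0.195, for Ube2e2, a ubiquitin-conjugating enzyme gene. Its intervals numbered 46, 48 and 39 in hippocampus and 48, 43 and 49 in cortex, and its log2 difference was -0.28 at 12 h and 0.22 in the other animals. Against the 2 saline animals alone no gene passed either (limma, 312 with an unadjusted p under 0.05). A tissue difference particular to 12 h after LPS was therefore not detectable with 3 animals.

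**Figure D3:**
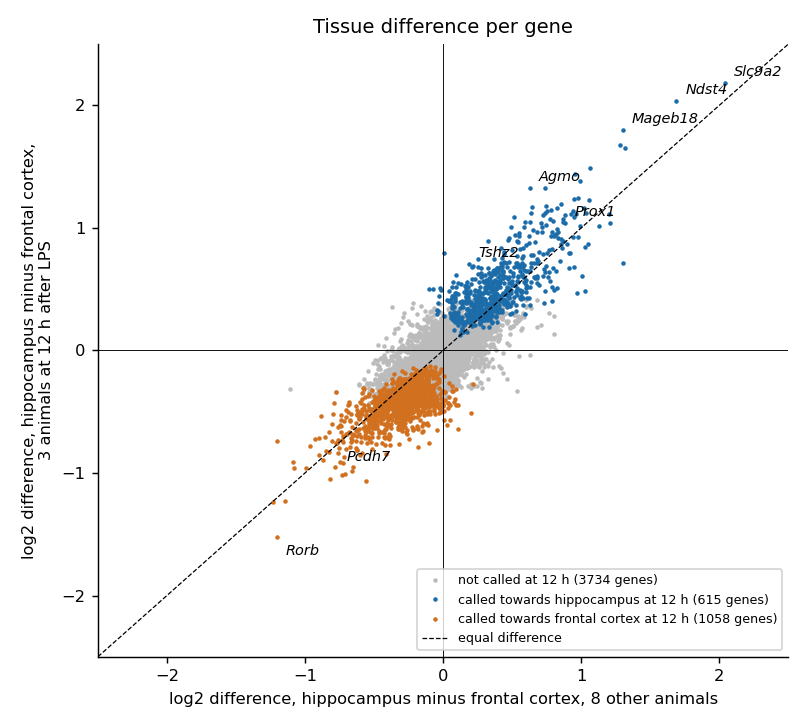
log2 difference in peak intervals, hippocampus minus frontal cortex, of 5407 genes in the 8 other animals (x axis) and in the 3 animals at 12 h after LPS (y axis). Blue and orange points are the 615 and 1058 genes called at 12 h; the dashed line marks equal differences, and Slc9a2 and Rorb lie near the ends of the cloud.

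Marker genes of dentate granule and CA pyramidal neurons had more intervals in hippocampus for 4 of the 12 tested of 26 and more in frontal cortex for 2 (11.4% and 19.6% of all genes; list median log2 0.19, against -0.09). With the minimum of 2 these counts were 3 and 1 (5.46% and 8.1% of all genes). Prox1, the granule cell factor (chromosome 1, 190118035 to 190170827), held 16, 23 and 17 intervals against 9, 8 and 6 (2.05-fold, log2 1.04 ± 0.15 SE, limma). Its cortical numbers averaged under the minimum of 8 before scaling, so only its adjusted p with the minimum of 2 is given (0.0189, limma). Zbtb20, a zinc finger factor of hippocampal neurons (chromosome 16, 42875689 to 43634392), held 119, 142 and 126 against 62, 67 and 64 (1.73-fold, adjusted p = 1.51e-14), and 40 hippocampal and 3 cortical windows lay nearest to it. Neither gene's libraries overlapped between tissues. Cpne4, a calcium-binding protein gene, was also higher (log2 0.23). The exceptions were Kcnq5, a potassium channel gene, with 66, 90 and 77 against 95, 99 and 98, and Man1a, a mannosidase gene (log2 -0.54 and -0.31). Man1a lost its call under the median of ratios scaling, and Cpne4 and Man1a with the minimum of 2.

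Cortical layer markers had more intervals in frontal cortex for 7 of the 20 tested and more in hippocampus for 3 (19.6% and 11.4% of all genes; median -0.12). Under the other scaling 6 and 3 were called, against 8.91% and 16.9% of all genes. With the minimum of 2 they were 6 and 2, against 8.1% and 5.46%. Beside Rorb, the upper layer factor genes Cux1 (51, 52 and 50 against 65, 75 and 68, log2 -0.64) and Cux2 (34, 42 and 39 against 44, 51 and 59, log2 -0.61) were higher in cortex, as were Pld5 (-0.71), Deptor (-0.42) and Foxp2 (-0.32, lost under the other scaling and with the minimum of 2). Tshz2, a zinc finger factor gene, went the other way with 58, 58 and 74 against 28, 31 and 43 (log2 0.70 ± 0.08 SE, adjusted p = 2.17e-09, limma). Its difference in the other animals was 0.19, and ranged from -0.82 to 0.68 between the 2 saline animals. Il1rapl2 (0.69) and Hs3st4 (0.24, lost with the minimum of 2) were also higher in hippocampus. Among forebrain patterning factors, 7 of 17 were higher in cortex (19.6% of all genes), among them Gli3 (-0.68), Mef2c (-0.61) and Meis2 (-0.52). Only Lmo3 was higher in hippocampus (0.38), against 11.4% of all genes. With the other scaling these counts were 5 and 2 (8.91% and 16.9% of all genes). With the minimum of 2 they were 5 and 1 (8.1% and 5.46%).

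Of 7 tested interneuron markers 2 were called towards hippocampus (11.4% of all genes). They were Adarb2, a marker of interneurons from the caudal ganglionic eminence, and Gad1, the GABA-synthesising enzyme gene. Adarb2 held 46, 61 and 62 intervals against 17, 27 and 24 (2.16-fold, log2 1.11 ± 0.09 SE, adjusted p = 1.41e-13, limma), without overlap. Gad1 held 14, 15 and 14 against 10, 9 and 9 (log2 0.40, lost with the minimum of 2). Satb1, a chromatin organiser of other interneurons, was higher in cortex (-0.45), and the 4 others tested were not called. Of excitatory neuron markers, 5 of 12 were higher in cortex and 0 in hippocampus (19.6% and 11.4% of all genes; median -0.18). Among them were Mef2c, Sv2b (-0.27), Rbfox3 (-0.25) and Grin2b (-0.17). Under the other scaling 2 were called towards cortex and 1 towards hippocampus (8.91% and 16.9% of all genes), and of these 4 Mef2c alone kept its call. With the minimum of 2 the counts were 3 and 0 (8.1% and 5.46% of all genes), without Sv2b and Grin2b.

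**Figure D4:**
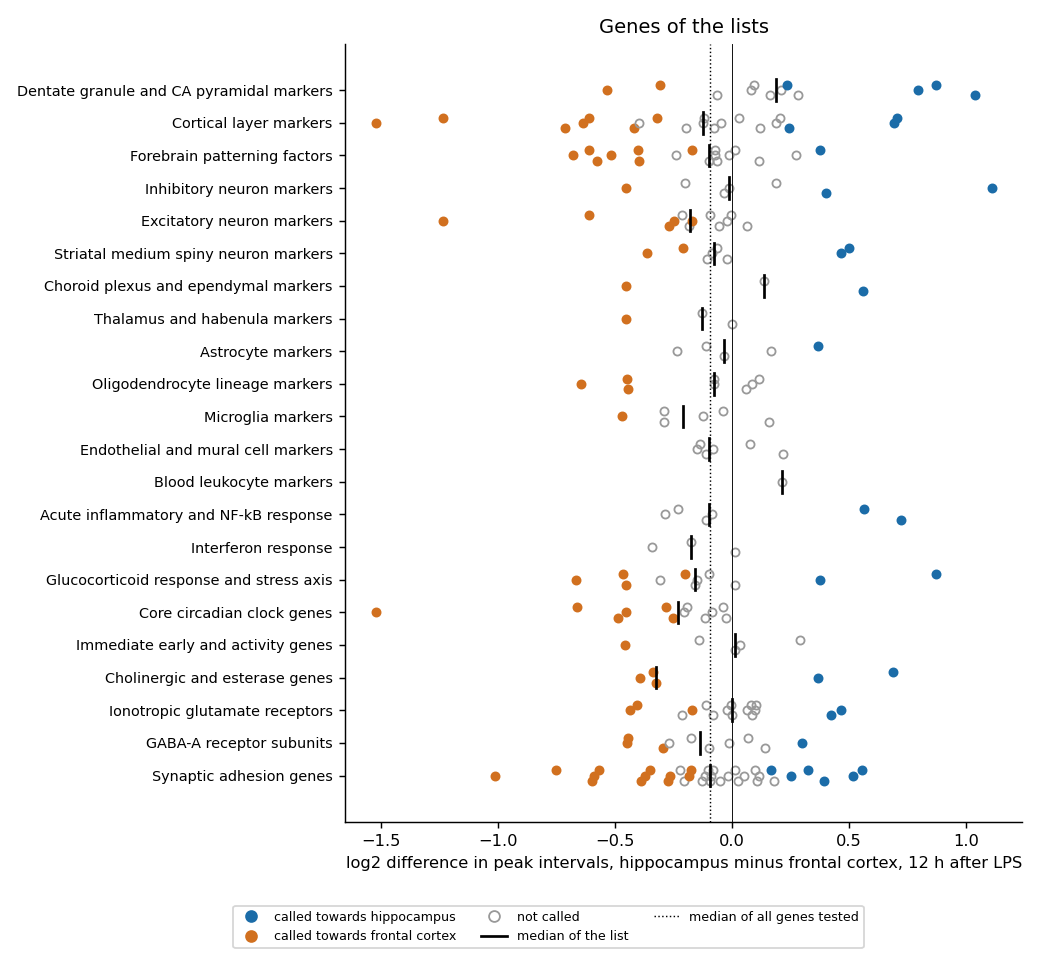
log2 difference in peak intervals at 12 h (x axis, hippocampus minus frontal cortex) of each tested gene of the 22 lists; filled points were called at an adjusted p under 0.05, thick bars are list medians and the dotted line is the median of all genes (-0.09). Dentate and CA markers have their median at 0.19 and circadian clock genes at -0.23.

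Both receptor genes for corticosterone differed between tissues. Nr3c2, the mineralocorticoid receptor gene, which binds corticosterone with high affinity (chromosome 8, 76898083 to 77245012), held 61, 78 and 66 intervals against 27, 36 and 34 (1.83-fold, log2 0.87 ± 0.08 SE, adjusted p = 3.05e-12, limma). Nr3c1, the glucocorticoid receptor gene, held 19, 21 and 18 against 24, 23 and 23 (log2 -0.47 ± 0.11 SE, adjusted p = 0.00106). The receptors thus differed in opposite directions, each without overlap of libraries. Of 11 tested genes of the glucocorticoid response, these receptors included, 2 were called towards hippocampus and 4 towards cortex, against 11.4% and 19.6% of all genes. Fkbp5, a chaperone that damps the receptor, was higher in hippocampus (0.37). Klf15 (-0.67), Tsc22d3 (-0.45) and Zbtb16 (-0.20) were higher in cortex, and of these 3 Klf15 alone kept its call under the other scaling. Fkbp5, Tsc22d3 and Zbtb16 lost their call with the minimum of 2. Klf15 reached the minimum mean of 8 only through cortex. The list median was -0.16.

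Of 28 listed genes of acetylcholine signalling and its esterases 5 were tested, and all 5 were called (30.9% of all genes; list median -0.33), but only Chrna7 and Chrm3 with the minimum of 2. Chrna7, the alpha7 nicotinic receptor gene, held 24, 24 and 25 intervals against 13, 12 and 14 (1.61-fold, log2 0.69 ± 0.12 SE, adjusted p = 1.42e-05, limma), without overlap. Chrm5, a muscarinic receptor gene, had a log2 difference of 0.37, but 79.1% of its region is shared with Aven. The muscarinic receptor genes Chrm3 (69, 81 and 75 against 78, 85 and 82, log2 -0.33) and Chrm2 (-0.34) and the cholinesterase anchor gene Prima1 (-0.40) were higher in cortex. Chrm2 and Prima1 lost their call under the other scaling.

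Of 6 tested genes of the acute and NF-kB response, of 41 in the list, 2 were called, both towards hippocampus, against 30.9% of all genes in either direction. Il1r1, the interleukin-1 receptor gene, held 17, 22 and 20 intervals against 10, 13 and 8 (1.65-fold, log2 0.72 ± 0.14 SE, adjusted p = 6.62e-05, limma). Il6ra, the interleukin-6 receptor gene, held 15, 15 and 13 against 7, 9 and 9 (log2 0.56), but its adjusted p was 0.0562 with the minimum of 2. Both were also higher in the hippocampus of the other animals (0.48 and 0.30), the saline ones among them. The other 4, Nfkb1 (-0.09), Stat3 (-0.23), Csf1 (-0.29) and Ptges (-0.11), were not called, nor was any of the 3 tested interferon genes (median -0.18). The other genes of both lists fell under the minimum of 8 intervals or, for 2 of the interferon list, were not in the gene table.

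Core clock genes were called towards cortex for 6 of the 12 tested and towards hippocampus for 0 (19.6% and 11.4% of all genes; median -0.23), Rorb among them. Rora, the relative of Rorb, held 106, 111 and 102 against 132, 119 and 130 intervals (log2 -0.46 ± 0.05 SE, adjusted p = 8.1e-09, limma). Nr1d2, a REV-ERB repressor gene, held 8, 8 and 8 against 12, 10 and 12 (-0.66), and Hlf (-0.49), Arntl (-0.28) and Npas2 (-0.25) followed. Under the other scaling Rorb, Rora, Nr1d2 and Hlf kept their call, and with the minimum of 2 Rorb, Rora and Nr1d2 did. Of 5 tested activity genes, Homer1 alone was called, towards cortex (-0.46, lost with the minimum of 2), against 19.6% of all genes.

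Glutamate receptor genes were called for 2 of 16 tested towards hippocampus and 3 towards cortex (median 0.00), near the shares of all genes (11.4% and 19.6%). The kainate receptor subunit genes Grik2 (63, 84 and 82 against 44, 53 and 46, log2 0.47) and Grik1 (0.42) were higher in hippocampus, whereas Grik3 (44, 45 and 46 against 45, 59 and 53, log2 -0.41) was higher in cortex. Gria4, an AMPA subunit gene (-0.44), and Grin2b, an NMDA subunit gene (-0.17, lost under the other scaling), were also higher in cortex. With peaks of -log10 q 5 or more Grik3 and Gria4 turned to 0.0777 and 0.17. Of 10 GABA-A receptor subunit genes, 1 was called towards hippocampus and 3 towards cortex, against 11.4% and 19.6% of all genes. They were Gabra5, known for extrasynaptic receptors of pyramidal cells (0.30), and Gabra4 (-0.45), Gabrb2 (-0.44) and Gabrg3 (-0.29, lost under the other scaling). Grin2b, Gabra5 and Gabra4 lost their call with the minimum of 2.

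Of 35 tested genes of synaptic adhesion, 6 were higher in hippocampus and 12 in cortex, against 11.4% and 19.6% of all genes. Under the other scaling 9 and 8 were called (16.9% and 8.91% of all genes), and with the minimum of 2 they were 3 and 10 (5.46% and 8.1%). Tenm2 (263, 284 and 279 against 158, 169 and 175 intervals, log2 0.52 ± 0.04 SE, adjusted p = 1.41e-13, limma) and Tenm3 (0.56), which encode teneurins, were higher in hippocampus. Pcdh7 (47, 61 and 53 against 74, 80 and 82, log2 -0.75 ± 0.07 SE, adjusted p = 4.56e-12, limma), Cdh12 (-0.60) and Pcdh10 (-1.01), which encode cadherin family proteins, were higher in cortex. Libraries did not overlap between tissues for Tenm2 and Pcdh7. The IgLON genes Lsamp (0.32) and Ntm (-0.35) differed in opposite directions, but Ntm turned to 0.24 with the 50000 strongest peaks.

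Markers of other cells and regions that a dissection can hold were read for the whole lists, as intervals summed over the list per 100000 of a library. Those of oligodendrocytes summed to 65.0 to 67.2 in hippocampus and 74.1 to 77.6 in cortex, and Enpp6, of newly formed oligodendrocytes, was 1 of 3 genes of 8 tested that were higher in cortex (21, 22 and 21 against 28, 31 and 29, log2 -0.65), against 19.6% of all genes. The other 2, Nkx2-2 (-0.45) and Cspg4 (-0.44), lost their call under the other scaling and with the minimum of 2. Nkx2-2 reached the minimum mean of 8 only through cortex. Microglia markers summed to 47.1 to 49.0 and 52.0 to 57.0. Of 6 tested Itgam alone was called, towards cortex (-0.47, lost under the other scaling and with the minimum of 2), against 19.6% of all genes. Itgam too reached the minimum mean of 8 only through cortex. Astrocyte markers summed to 69.9 to 75.1 and 66.7 to 67.2. Of 5 tested Slc4a4 alone was called, towards hippocampus (0.37, and -0.0906 with the 50000 strongest peaks), against 11.4% of all genes. The ranges did not overlap for these 3 lists, whereas those of endothelial and mural cells did (51.3 to 58.7 and 49.3 to 52.5, 0 of 6 tested genes called). Nor did the ranges overlap for most of the 22 lists, and all genes tested leaned towards cortex (median log2 -0.09).

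Striatal markers summed to 152 to 164 in hippocampus and 165 to 169 in cortex. Of 8 tested, 2 were called towards hippocampus and 2 towards cortex, against 11.4% and 19.6% of all genes. Drd2 (11, 13 and 12 against 6, 9 and 7, log2 0.50) and Ebf1 (0.47) were higher in hippocampus. Rgs9 (-0.36) and Pde10a (-0.21) were higher in cortex, both lost under the other scaling. With the minimum of 2 none of these 4 was called, and Drd2 reached the minimum of 8 only through hippocampus. The difference of Drd2 in the other animals was -0.08. The promoter of Six3, a factor of striatal neurons, was open in 3 of 3 hippocampus and 0 of 3 cortex libraries at 12 h, but in 6 of 8 cortex libraries of the other animals. Choroid plexus markers summed to 33.0 to 33.7 and 32.7 to 34.0, with Otx2 at 0 in all 6 libraries. Of 3 tested, Lmx1a was higher in hippocampus (0.56) and Enpp2 in cortex (-0.45, lost with the minimum of 2), against 11.4% and 19.6% of all genes. Thalamic markers summed to 65.3 to 70.7 and 73.9 to 89.3. Blood leukocyte markers summed to 12.9 to 14.8 and 11.3 to 12.6, with S100a8, S100a9 and Ccr2 at 0. The part of cell and tissue composition in the differences above was not tested.

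Regions called by the authors between LPS and saline within each tissue were set on these windows. In the authors' deposited table for hippocampus at 12 h, 1211 regions rose and 1873 fell after LPS. Of 1166 windows under the rising regions of the authors' deposited table that were open in 2 or more of the 6 libraries, 371 (31.8%) were restricted to hippocampus and 23 (1.97%) to cortex, against 13.1% and 6.61% of all windows. Under the falling regions of the authors' deposited table these were 303 (22.8%) and 26 (1.95%) of 1331. Both sets of regions were called in hippocampus libraries, which favours sites with signal there. A surplus of hippocampal over cortical windows was therefore partly fixed by the choice, and these shares are no test. Windows under the falling regions of the authors' deposited table were open in 45.0%, 86.4% and 58.6% of cases in hippocampus replicates 1, 3 and 4, so replicate 3 was highest. The authors' deposited table for frontal cortex held 7 rising and 45 falling regions. Of 33 windows under the falling regions of the authors' deposited table for frontal cortex, 2 (6.06%) were restricted to hippocampus and 0 to cortex, and under its rising regions 0 of 7 were restricted to either.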

How the data were processed

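Peak lists of 6 libraries were compared, with 16 further libraries as other animals. Per the submitters' processing notes, the tools were MACS2 2.2.7.1, Bowtie2 2.4.4, Trim Galore 0.6.7 and FastQC 0.11.9, on the GRCm38 (mm10) build, and peaks were deposited per library. Any transposase shift of the reads was not given in the sources used here. The authors deposited for each peak its score, its fold enrichment as a ratio, its -log10 p and its -log10 q. Strength ranks use the deposited -log10 p within a library. Weak peaks are listed, with a lowest -log10 q of 0.537 to 0.620 per library. The number in the authors' deposited differential tables was read as a Phred-scaled FDR. Depth is unknown from peak lists, so no counting interval is given.

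Intervals with several summits were counted once. The animal pairs the tissues, since the labels name the same animal for both. Deviations of libraries from their tissue means correlated across genes with r = 0.109, 0.0552 and 0.0804 within animals, and -0.0737 to 0.00107 between animals. Genes, without strand, and promoters came from RefSeq tables of GRCm38.p6. Chromosome 18 has no start sites in the table and was left out of start site shares, and some genes are not reported here. limma 3.58.1 (trended variance, R 4.3.3), scipy 1.17.1 and numpy 2.4.6 were used, and the gene test was tested on simulated data. Genes named were the 10 per direction with the largest difference among called genes without overlap of libraries, and up to 3 per direction and list with the lowest adjusted p; other list genes were named after their values were seen. The lists, windows and named genes were chosen with earlier results of these data known. Alternatives covered stricter, equal and top peak sets, overlap, scaling, pseudocount (1), the minimum mean (2), gene assignment, the replicate block and leaving out each animal. The distance to peaks of the other tissue and the use of start sites were added after the data were seen.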

Additional observations from a re-analysis of the deposited data

How the results depend on the processing

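Results rest on 3 animals, on peak calls in place of reads, and on gene regions that count a peak whatever its strength. Without the replicate block 548 and 917 genes were called towards hippocampus and frontal cortex, in place of 615 and 1058. Towards hippocampus the count was 376 with equal numbers of peaks, 54 with the 50000 strongest peaks (587 genes tested) and 1147 by nearest gene. With a minimum mean of 2 it was 594 and 784 in all, but 295 of the 615 and 438 of the 1058 genes kept their call. Towards frontal cortex it was 102 with the 50000 strongest and 4.8e+02 under median of ratios scaling (8.91% of genes). Leaving out 1 animal gave 389 to 533 genes towards hippocampus and 618 to 961 towards frontal cortex, with the lowest counts without replicate 3. Restricted windows numbered 9252 and 9571 with the 50000 strongest peaks, of which 1999 and 914 were also restricted with all peaks. Of the 21431 cortical windows with all peaks, 13333 had no hippocampal peak within 1 kb at 12 h. Leaving out 1 animal gave 52620 to 58786 hippocampal and 30202 to 31887 cortical windows. With peaks of -log10 q 5 or more the tissue difference in intervals near a gene end was -1.28 and near a start site -1.32 percentage points, in place of -0.86 and -0.87. The difference in median width ranged from -15.5 to 2.5 bp when an animal was left out. Of 898 alternative values of 77 named genes, 781 kept direction and call, 112 lost the call and 5 turned: Gria4 (0.17), Grik3 (0.0777) and Rgs9 (0.0112) with peaks of -log10 q 5 or more, and Ntm (0.24) and Slc4a4 (-0.0906) with the 50000 strongest. With the 50000 strongest alone, 7 named genes kept direction and call, 8 lost the call and 2 turned. Among all called genes still tested, 84 of 300 turned with the 50000 strongest and 57 of 1144 with peaks of -log10 q 5 or more. The cause was not tested. The difference of restricted windows in the other animals kept its direction and p under equal numbers of peaks (78.0 and -76.3 points), stricter peaks (73.7 and -83.0) and any overlap (73.4 and -78.2).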
